A study of Mus musculus with 6 samples.

Results

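Merkel cells are touch-sensitive cells of the epidermis that contact sensory nerve endings and, in hairy skin, sit in crescents beside the large guard hair follicles. They arise from epidermal progenitors during late embryonic life, under the transcription factor Atoh1, and then take on neuroendocrine features such as secretory granules and synaptic vesicles. Frizzled 6, encoded by Fzd6, is a receptor of planar cell polarity, the system that orients hair follicles along the body axis, and Merkel cells keep a position relative to those follicles.

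The genes described here are 7 genes of the Merkel cell program. Atoh1, Isl1, Gfi1 and Insm1 encode transcription factors, Chga and Syp encode proteins of secretory granules and synaptic vesicles, and Krt20 encodes a keratin. All probe sets that the array's annotation assigns to 1 of these symbols were taken, without regard to their values, which gave 10 of 45037 probe sets, for 7 of 18193 genes with a named probe set. Insm1, Isl1 and Syp had 2 each, and the other 4 genes had 1 each.

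RNA came from mouse back skin at E15.5 and was hybridised to Affymetrix MOE430 2.0 arrays, on which sets of short probes read each transcript. By the genotype in the labels, 3 samples were Fzd6 +/- (control) and 3 were Fzd6 -/- (knockout), all of the C57BL6/129 mixed strain. Every animal therefore carried at least 1 mutant copy of Fzd6, and no wild-type skin was included. Samples of a group are labelled as biological replicates with no word on litters or on pooling of embryos, so the tests measure the spread between these samples. Values are RMA expression values on the log2 scale, where a difference of 1 is a factor of 2 in signal.

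Basal epidermal genes averaged 10.5 to 11.1 by array and dermal fibroblast genes 11.8 to 12.7, so both layers of skin were present in the labelled tissue. Fzd6 itself, in its brightest probe set, read 9.38 ± 0.23 in control and 8.93 ± 0.19 in knockout skin (SD, n = 3), and the groups did not overlap. Its other probe sets differed by -0.0097, with overlap, and by -0.67, without. Where the probes lie with respect to the deletion was not analysed here. Arrays of the same genotype also differed. Y-linked genes read 2.53 to 3.65 in control 2 and knockout 3 and 6.71 to 9.65 in the other 4 arrays. Knockout 1 stood apart in its readings of cell type genes, with endothelial genes 0.90 below and suprabasal genes 0.69 above their means over the 6 arrays. All 9 measured suprabasal genes had the higher mean in the knockout, with average deviations of -0.37, -0.35 and -0.15 in controls and 0.14 and 0.041 in the other knockouts. In bulk skin, fewer cells of a type and less RNA per cell cannot be told apart.

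Most of these probe sets read low. Of the 10, 8 lay below the median of all probe sets (6.02), and both Isl1 probe sets lay above it. Transcripts that are not made in a sample give a gauge of what low means on this array. The brightest probe set of Xist, an RNA made from the inactive X chromosome, read 5.42 to 6.14 in the 4 arrays with Y-linked signal, against 13.2 or more in the other 2. In those 2 arrays the Y-linked genes read lower, at 2.53 to 3.65. The 44 probe sets of olfactory receptors, genes that work in the nasal epithelium, averaged 2.76 to 5.77. These reference readings were chosen after the member values were seen. The means of Atoh1, Gfi1, Insm1, Chga, Krt20 and Syp all lay inside the range of the olfactory receptors, and those of Isl1 did not. Their places in that range, whose median was 4.09, differed. Atoh1 and the brighter Syp probe set exceeded 43 of the 44, and Krt20 and the dimmer Syp probe set 40. Gfi1 exceeded 33, Chga 31 and the Insm1 probe sets 10 and 1. Each probe set has its own background, so a reading inside this range does not show that the RNA is absent, and the readings do not rank the genes by RNA amount.

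**Figure D1:**
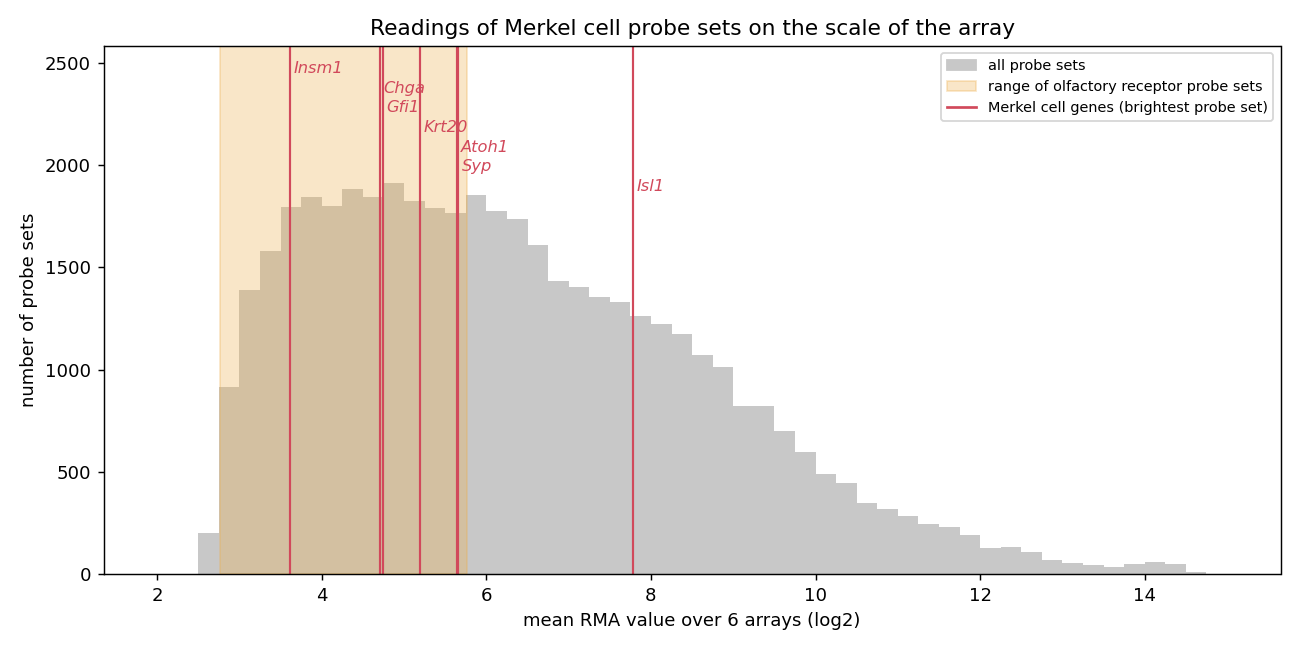
Grey bars count all probe sets by their mean RMA value over 6 arrays (log2), the shaded band spans the 44 olfactory receptor probe sets (2.76 to 5.77), and red lines mark the brightest probe set of each Merkel cell gene. Isl1 is the only one of the 7 genes to the right of the band.

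The bases upstream of the start sites are shown for 3 members because factors of this program and of muscle bind such DNA. Atoh1 is a basic helix-loop-helix protein, a class that binds the E-box CANNTG, and the myogenic factors of skeletal muscle, whose genes enter the account of Isl1, belong to the same class. The sequences are the 250 bases before the RefSeq start (GRCm38.p6), written 5′ to 3′ on the gene's strand, with each CANNTG in capitals. Atoh1 is shown as the defining factor of the lineage, Isl1 as the member with clear signal and Chga as the member with the most E-boxes. The windows are chr6:64728875-64729124 (plus strand) for Atoh1, chr13:116309689-116309938 (minus strand) for Isl1 and chr12:102554691-102554940 (plus strand) for Chga.
Atoh1: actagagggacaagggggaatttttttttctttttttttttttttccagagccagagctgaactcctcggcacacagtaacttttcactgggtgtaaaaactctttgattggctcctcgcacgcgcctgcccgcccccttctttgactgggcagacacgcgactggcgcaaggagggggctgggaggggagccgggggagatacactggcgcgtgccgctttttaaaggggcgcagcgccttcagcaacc
Isl1: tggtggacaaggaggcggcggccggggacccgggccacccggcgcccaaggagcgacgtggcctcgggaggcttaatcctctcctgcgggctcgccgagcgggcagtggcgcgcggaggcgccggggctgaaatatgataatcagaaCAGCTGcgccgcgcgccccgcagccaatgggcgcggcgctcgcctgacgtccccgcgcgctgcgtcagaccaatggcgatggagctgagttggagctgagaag
Chga: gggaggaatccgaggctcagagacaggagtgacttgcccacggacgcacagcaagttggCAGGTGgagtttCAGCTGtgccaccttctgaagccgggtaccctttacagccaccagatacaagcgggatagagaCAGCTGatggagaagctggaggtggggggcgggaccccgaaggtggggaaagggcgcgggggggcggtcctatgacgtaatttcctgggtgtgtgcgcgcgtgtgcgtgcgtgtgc
The Atoh1 window held 0 copies of CANNTG, the Isl1 window 1 and the Chga window 3. The Isl1 copy and 2 of the Chga copies were the palindrome CAGCTG. Of 32817 such windows in the RefSeq table, 66.2% held CANNTG and 13.0% held CAGCTG, so a match of the first kind is common. Both Gfi1 windows held 1 CANNTG, and the Krt20 and Syp windows held 0. A match is a description of letters and not of a bound site. The table gave windows for 6 of the 7 genes, the exception being Insm1.

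The comparison of genotypes asked whether Merkel cell transcripts differed in skin without Fzd6. None of the 10 probe sets passed limma's adjusted p of 0.05 over all 45037 probe sets (smallest adjusted p = 0.909), as none did on the whole array (background 0.0%). At an unadjusted p under 0.05 there was 1, of Gfi1, where 5.21% of all probe sets passed. With same-numbered arrays paired through a replicate block there was also 1, but of Chga in place of Gfi1, where 12.0% of all probe sets passed. In 8 of 10 probe sets the knockout mean was the higher (50.6% of all probe sets), in both Isl1 probe sets it was the lower, and the 7 genes had a median difference of 0.16 (brightest probe sets) against 0.0070 over 18193 genes. Without knockout 1, the array that stood apart, 8 of 10 probe sets were higher and the median was 0.10. Without control 2 the count was 7 and the median 0.097. Dim probe sets as a class leaned the same way. Of all probe sets below the median level 60.4% had the higher mean in the knockout, against 40.8% of those above it, and 35 of the 44 olfactory receptor probe sets did, with a median difference of 0.056. The part of this lean in the members' differences was not tested.

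Atoh1, which is required for Merkel cells to form, read 5.69, 5.49 and 5.55 in controls 1 to 3 and 5.82, 5.70 and 5.64 in knockouts 1 to 3. Control 1 lay above knockout 3, so the groups overlapped. The difference was 0.14 (95% confidence interval -0.073 to 0.35, limma adjusted p = 0.916). Arrays of the same replicate number differed by 0.13, 0.21 and 0.085, each higher in the knockout. The labels do not say that such arrays belong together.

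Gfi1, a zinc-finger repressor that is also active in blood cells, read 4.42, 4.50 and 4.82 in controls and 5.02, 4.95 and 4.72 in knockouts. Knockouts 1 and 2 were the highest arrays, and knockout 3 lay below control 3. The difference was 0.32 (0.0044 to 0.63), with an unadjusted limma p of 0.0475 and an adjusted p of 0.909. Leaving out 1 array in turn gave 0.23 to 0.44. With the replicate block its unadjusted limma p was 0.0509, not under 0.05. Since Gfi1 also serves blood-derived cells, their genes are given beside it. All 8 measured mast cell genes had higher values in the knockout, and their average deviation was -0.48, -0.45 and 0.12 in controls and 0.14, 0.26 and 0.41 in knockouts. Gfi1 deviated by -0.32, -0.24 and 0.088 in controls and 0.28, 0.21 and -0.018 in knockouts. Controls 1 and 2 were lowest in both, but knockout 3 was highest for mast cell genes and lay below control 3 for Gfi1. The mast cell list averaged 7.81 to 8.42 in controls and 8.43 to 8.70 in knockouts. Of 8 other leukocyte genes 4 were higher, with list means of 7.32 to 7.62 in controls and 7.39 to 7.75 in knockouts. Their part in the Gfi1 difference was not tested.

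Insm1, a zinc-finger factor of neuroendocrine cells, gave the lowest readings of the set. Its brighter probe set read 3.57, 3.36 and 3.62 in controls and 3.76, 3.77 and 3.59 in knockouts, a difference of 0.19 (-0.046 to 0.43). The dimmer one read 2.91, 3.12 and 3.24 in controls and 3.35, 3.32 and 3.19 in knockouts, a difference of 0.20 (-0.052 to 0.45). In both, knockouts 1 and 2 lay above all controls and knockout 3 lay below control 3. Both had an adjusted p of 0.909 in limma. The brighter one gave 0.11 without control 2 and the dimmer one 0.11 without control 1.

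Chga, which encodes the granule protein chromogranin A, read 4.74, 4.48 and 4.49 in controls and 5.14, 4.58 and 4.80 in knockouts. Knockout 1 was highest and knockout 2 lay below control 1. The difference was 0.27 (-0.081 to 0.63, limma adjusted p = 0.909) and was 0.12 without knockout 1 and 0.40 without knockout 2. With the replicate number as a block, Chga had the smallest p of the members in limma, at 0.0148 unadjusted and 0.344 adjusted, and no member passed (0.00666% of all probe sets did). Sympathetic neurons also make chromogranin A. Of 5 measured genes of the sympathoadrenal lineage 4 had higher values in the knockout, with a median of 0.043. The list averaged 5.36 to 5.4 in controls and 5.43 to 5.48 in knockouts. Of all probe sets below the median level, 60.4% had the higher mean in the knockout. One gene of the list, Dbh, which makes noradrenaline, read 7.31, 7.50 and 7.57 in controls and 7.63, 7.75 and 7.74 in knockouts. Its difference was 0.25 (0.029 to 0.47, limma adjusted p = 0.909). Its groups did not overlap, as in 6.55% of all probe sets with the knockout higher. The part of this lineage in the Chga difference was not tested.

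Syp encodes synaptophysin of the synaptic vesicle. Its dimmer probe set was the only 1 of the 10 in which the groups did not overlap, with 4.95, 4.95 and 4.90 in controls and 5.03, 5.01 and 5.16 in knockouts. Over the array, groups did not overlap in 11.6% of probe sets, and in 6.55% with the knockout higher. The difference was 0.13 (-0.053 to 0.32, limma adjusted p = 0.912). The brighter Syp probe set did not share it, at 5.61, 5.62 and 5.75 in controls and 5.58, 5.70 and 5.69 in knockouts (0.0024, -0.19 to 0.20). The probe sets of the same gene thus gave different pictures, and the gap in the dimmer one was small on this scale.

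Krt20, a keratin that marks maturing Merkel cells within skin, read 5.12, 4.92 and 5.30 in controls and 5.38, 5.15 and 5.28 in knockouts. Control 3 lay above knockouts 2 and 3. The difference was 0.16 (-0.12 to 0.43, limma adjusted p = 0.918), and it was 0.061 without control 2, the lowest array. Control 2 was lowest and knockout 1 highest for Atoh1, Krt20 and Chga alike. Knockout 1 was the highest array in 6 of the 10 member probe sets, against 21.6% of all probe sets.

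**Figure D2:**
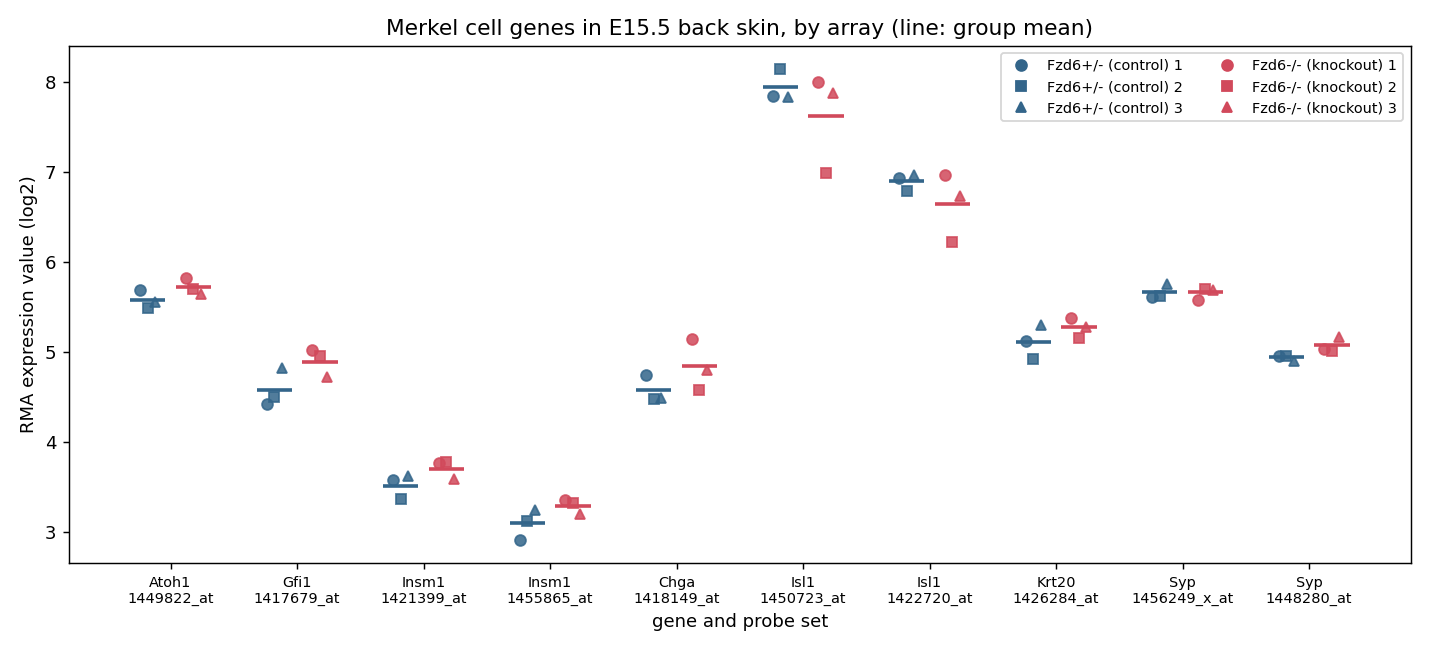
RMA values (log2) of all 10 probe sets in the 3 Fzd6+/- arrays (blue) and the 3 Fzd6-/- arrays (red), with marker shape giving the replicate number and lines the group means. The groups overlap in 9 of 10 probe sets, the exception being the dimmer Syp probe set, and knockout 2 stands low in both Isl1 probe sets.

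Isl1, a LIM-homeodomain factor of Merkel cells and sensory neurons, was the member with clear signal and the one with lower means in the knockout. Its brighter probe set read 7.84, 8.14 and 7.83 in controls and 8.0, 6.99 and 7.88 in knockouts. The dimmer one read 6.93, 6.79 and 6.97 in controls and 6.97, 6.22 and 6.73 in knockouts. Knockout 2 was lowest in both, 0.79 and 0.55 below the mean of the 6 arrays, while knockouts 1 and 3 of the brighter probe set lay among the controls. The differences were -0.31 (-0.91 to 0.28, limma adjusted p = 0.925) and -0.25 (-0.68 to 0.17, limma adjusted p = 0.918). Without knockout 2 they were 0.0015 and -0.043, so this array carried nearly all of the difference. By replicate number the brighter probe set differed by 0.16, -1.15 and 0.045.

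Skeletal muscle genes were low in the same array. Of 7 measured muscle genes, among them the cardiac actin Actc1 and, named after their values were seen, the embryonic myosin Myh3 and the myogenic factor Myog, 6 were lowest in knockout 2, where 13.1% of all probe sets were. The exception was Acta1, the skeletal actin, which was lowest in control 1 and is also named after its values were seen. The list averaged -0.30, 0.41 and -0.067 in controls and 0.14, -0.51 and 0.33 in knockouts, relative to each gene's mean. Its mean level ran from 10.8 to 11.5 in controls and from 10.6 to 11.4 in knockouts, so muscle genes read high in all 6 samples. Sensory neuron genes averaged -0.032 in knockout 2, and 2 of 14 were lowest there, against 13.1% of all probe sets. One of these was Nefl, at 4.51 in knockout 2, 4.53 in knockout 3 and 5.12 to 5.45 in controls. The sensory neuron list averaged 5.77 to 5.89 in controls and 5.72 to 5.78 in knockouts, below the median of all probe sets (6.02). The part of muscle or of nerve in the Isl1 reading was not tested.

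Genes whose profile over the 6 arrays was most like that of the brighter Isl1 probe set were sought among 11848 genes above the median level. Ppwd1, a WD-repeat peptidyl-prolyl isomerase, came first (Pearson r = 0.994), followed by Ptgis, the prostacyclin synthase (0.989), and Ppp1r3c, a glycogen-targeting subunit of protein phosphatase 1 (0.986). With so many genes and 6 arrays such values are easily reached, and the coefficients are descriptions with no test. Over the 5 arrays without knockout 2 they were 0.981, 0.870 and 0.819. Ppwd1 spanned only 7.92 to 8.13, whereas Ptgis read 7.75 in knockout 2 and 8.35 to 8.59 elsewhere. Of the fixed muscle list, Myog, Actc1 and Myh3 ranked 70, 75 and 82, Tnnt3, Ckm and Des 225, 507 and 603, and Acta1 2018. Without knockout 2 their r went from 0.881 to 0.456 for Myog and from 0.764 to 0.508 for Tnnt3. It went from 0.64 to 0.584 for Ckm, from 0.615 to 0.298 for Des and from 0.871 to 0.864 for Actc1. For Myh3 it rose from 0.868 to 0.982 and for Acta1 from 0.354 to 0.509. Other muscle genes, picked from the head of the ranking and so no evidence for the group, stood higher. Myf5, a myogenic factor, ranked 5 with r = 0.980, and read 5.52 in knockout 2 and 6.31 to 6.79 elsewhere. Tnnt1 and Tnnc1, slow-muscle troponins, ranked 7 and 12.

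**Figure D3:**
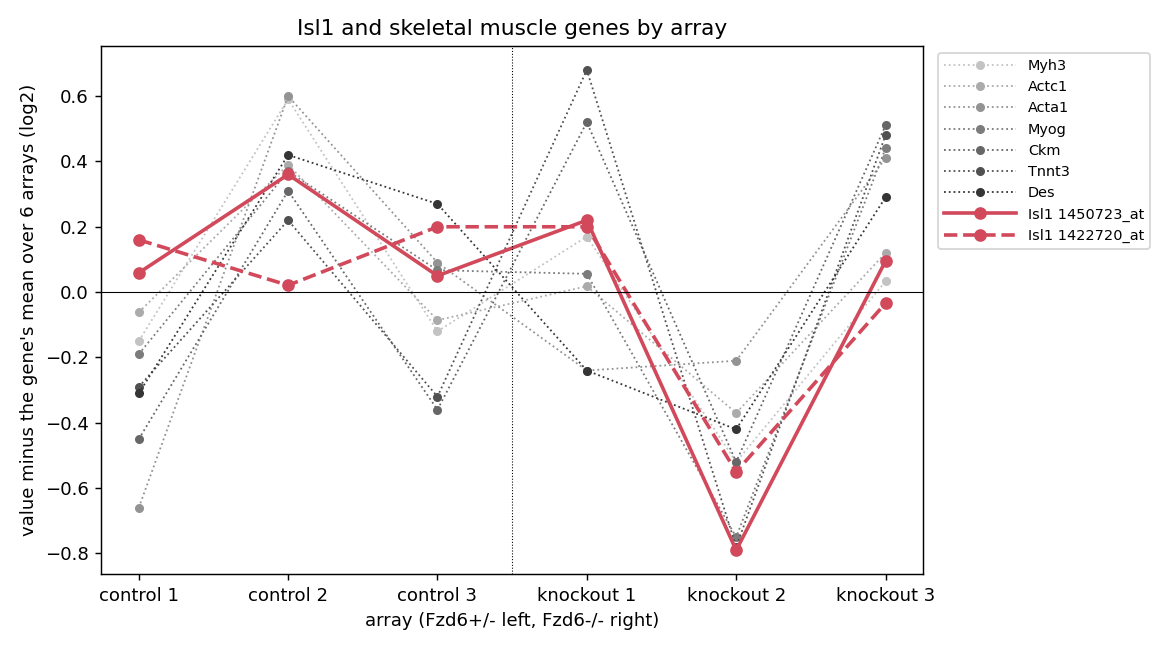
Deviation of each gene from its own mean over 6 arrays (log2), with the 2 Isl1 probe sets in red (solid for the brighter, dashed for the dimmer) and the 7 skeletal muscle genes in grey. Lines only join the values of a gene. Isl1 lies 0.79 and 0.55 below its mean in knockout 2, where 6 of the 7 muscle genes are at their lowest, and the second Isl1 probe set does not follow the muscle genes upward in control 2.

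Other genes of Merkel cells were read from a list of 22, all measured. In their brightest probe sets 14 had higher and 8 lower values in the knockout, with a median of 0.067. The median was 0.018 without control 2, 0.025 without knockout 3 and 0.036 without control 1. None passed limma's adjusted threshold or an unadjusted p of 0.05. With the replicate block Lhx3, Krt8 and Krt19 were under 0.05 unadjusted, as were 12.0% of all probe sets. None of the 22 passed the adjusted threshold there. Sox2, a factor that acts with Atoh1 in the lineage, read 6.16, 6.33 and 5.98 in controls and 5.73, 6.29 and 5.92 in knockouts (-0.18, -0.55 to 0.19). Knockout 1 was its lowest array, unlike for Atoh1. Pou4f3, a POU factor downstream of Atoh1 in hair cells of the ear, differed by 0.065 (-0.25 to 0.38) and Lhx3, a LIM factor, by 0.17 (-0.058 to 0.40) at readings of 5.38 to 5.80. Piezo2, the mechanically gated channel through which Merkel cells sense touch, read 6.34, 6.26 and 6.47 in controls and 6.31, 6.27 and 6.37 in knockouts (-0.044, -0.25 to 0.16). Chgb, a second chromogranin, differed by 0.069 (-0.30 to 0.44), and Snap25, of the vesicle fusion machinery, by -0.082 at 2.82 to 3.13.

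The keratins of Merkel cells that other epithelia share gave bright signal. Krt8 read 10.5, 10.2 and 9.94 in controls and 11.1, 10.4 and 10.2 in knockouts, so that the knockout mean was higher by 0.36 (-0.19 to 0.92, adjusted p = 0.916 in limma). The 2 dimmer probe sets gave 0.42 and 0.38. Krt18, its partner, differed by 0.15 (-0.55 to 0.86) and Krt19 by 0.35 (-0.22 to 0.91). By replicate number, a pairing that the labels do not state, all 3 genes were higher in the knockout in each of 3 comparisons. The differences were 0.63, 0.18 and 0.28 for Krt8, 0.35, 0.078 and 0.023 for Krt18 and 0.47, 0.34 and 0.22 for Krt19. The groups overlapped in each gene, since knockout 3 read below control 1. These keratins also belong to the periderm, the transient outer layer of embryonic skin. All 8 genes of a periderm list had higher values in the knockout, with a median of 0.98 and list means of 8.57 to 8.95 in controls and 9.14 to 10.1 in knockouts. The groups did not overlap in 5 of the 8, against 6.55% of all probe sets. The median was 0.64 without knockout 1 and 1.15 without knockout 2. That list was highest in knockout 1, as Krt8, Krt18 and Krt19 were, and its part in their differences was not tested.

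**Figure D4:**
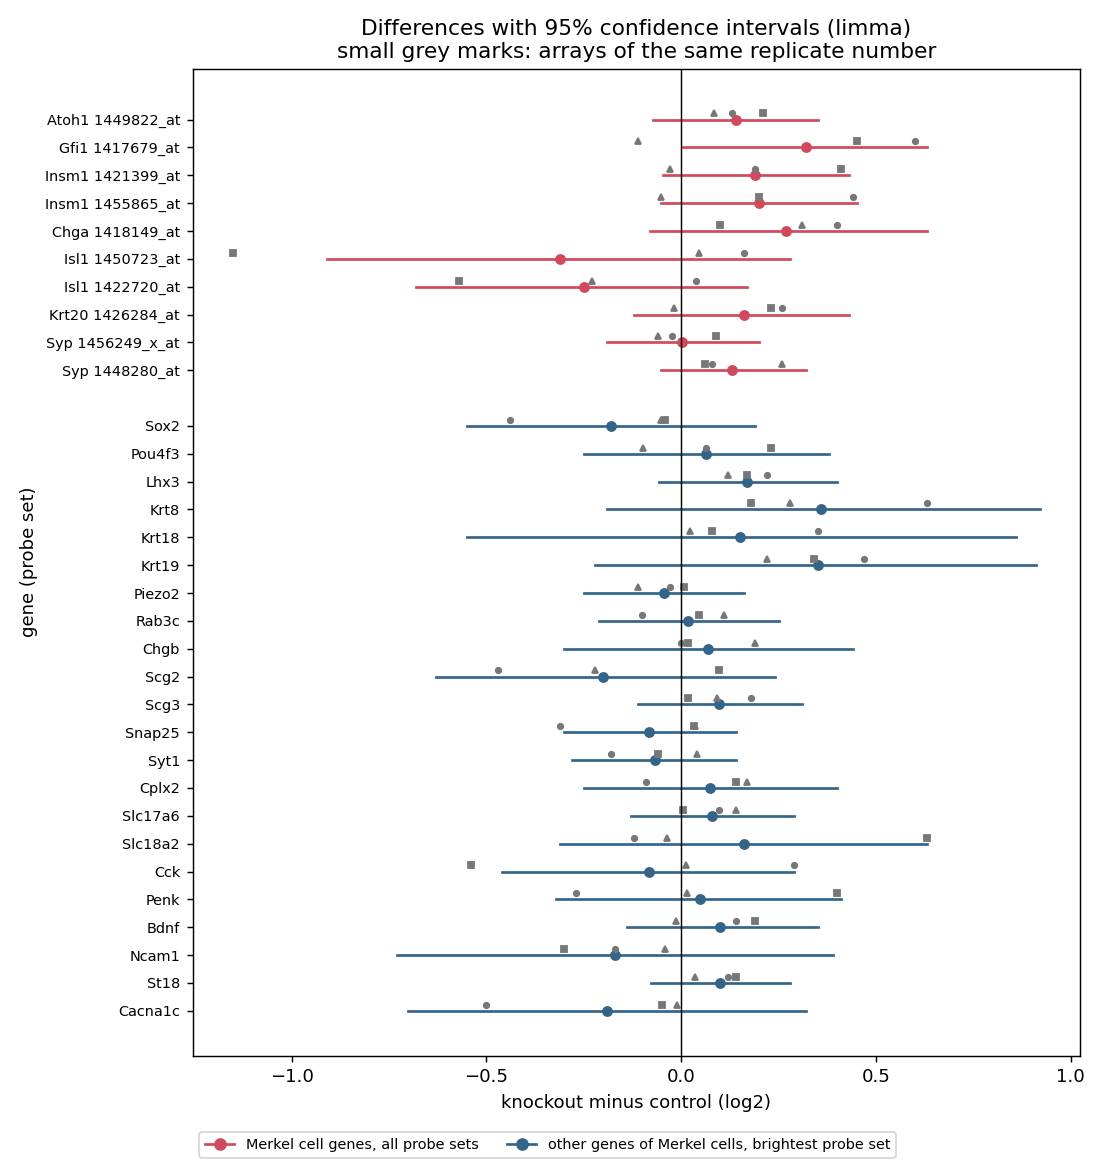
Knockout minus control differences (log2) with 95% confidence intervals from limma for the 10 Merkel cell probe sets (red) and for the brightest probe set of 22 other genes of Merkel cells (blue), with small grey marks for arrays of the same replicate number. Gfi1 is the only interval that does not reach 0, at 0.0044 to 0.63, and the widest interval among the members belongs to Isl1, at -0.91 to 0.28.

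Genes that act on or with the Merkel cell factors were read in fixed lists, and none of their members passed the adjusted threshold in limma. The polycomb genes read above the median level, where 40.8% of all probe sets had the higher mean in the knockout. The list of 10 held polycomb genes, whose products repress Atoh1 in epidermal progenitors, and also demethylases that oppose them. Of these 10, 3 had higher values and 7 lower, with a median of -0.078 and 0 at an unadjusted p under 0.05. The median was -0.16 without control 1, -0.15 without knockout 3 and -0.030 without control 2. With the mean of all probe sets of each gene it was -0.032. Ezh2, the methyltransferase of the complex, read 10.1, 10.1 and 9.92 in controls and 9.82, 9.87 and 9.91 in knockouts (-0.20, -0.41 to 0.011), and Rnf2 and Suz12 differed by -0.17 and -0.15. In 4 of the 10 the knockouts lay below all controls, against 5.0% of all probe sets. Among 12 genes of hedgehog, ectodysplasin, fibroblast growth factor, BMP and Wnt signalling in early skin, 6 were higher and 6 lower, with a median of -0.064 that lay between -0.12 (without knockout 2) and -0.016 (without control 2). Only Fgfr2, a receptor of the epidermis, had an unadjusted p under 0.05 (-0.22, -0.43 to -0.0052, limma adjusted p = 0.909), and the ligand Eda differed by -0.19.

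Notch genes, which restrain Atoh1 in other tissues, were lower in 8 of 9, with a median of -0.056 and 0 at an unadjusted p under 0.05. The median turned positive without control 2 (0.076), without knockout 1 (0.0061) and with array weights (0.0019), and was -0.21 without control 1 and -0.19 without knockout 2. Hey1 and Hes1, targets of the pathway, differed by -0.24 (-0.60 to 0.11) and -0.20 (-0.51 to 0.11), and its DNA-binding factor Rbpj by -0.17. Hey1 and Hes1 were under an unadjusted p of 0.05 with the replicate block, as were 12.0% of all probe sets. Neither passed the adjusted threshold there. E-proteins, Id proteins and other partners of Atoh1 were lower in 9 of 10, with a median of -0.11. None had an unadjusted limma p under 0.05, and the median was 0.025 without knockout 1 and -0.030 without control 2. Like the Notch genes, these partners read above the median level, where 40.8% of all probe sets had the higher mean in the knockout. Id1 differed by -0.13 and Tcf12 by -0.20 (-0.53 to 0.13). Of 8 genes that comprise corepressor subunits used by Gfi1 and Insm1 and the Gfi1 relative Gfi1b, 4 were higher and 4 lower, with a median of -0.036 (-0.10 without control 1, 0.0012 without control 2). The deacetylase Hdac2 had the smallest p, at 11.7, 11.6 and 11.7 in controls and 11.6, 11.4 and 11.4 in knockouts (-0.20, -0.38 to -0.0076, limma adjusted p = 0.909), and the demethylase Kdm1a differed by -0.12.

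Nerve genes bear on the members that neurons share. Sensory neuron genes were higher in 4 and lower in 10 of 14, with a median of -0.027, which was 0.023 without control 1, 0.041 without replicate 1 of both groups and -0.075 without control 2. Nefl, the light neurofilament of axons, read 5.45, 5.12 and 5.25 in controls and 5.09, 4.51 and 4.53 in knockouts (-0.56, -0.96 to -0.16, limma adjusted p = 0.909). All knockouts lay below all controls in it, as in 5.0% of all probe sets. Scn9a, a sodium channel of sensory neurons, and Ret, a receptor of mechanosensory neurons, lay the other way without overlap, at 0.18 and 0.16. With the knockout higher, groups did not overlap in 6.55% of all probe sets. Scn9a read 4.0 to 4.35, inside the range of the olfactory receptors. Schwann cell genes, of the glia along those nerves, were lower in 4 of 5, with a median of -0.11 (-0.19 without control 3, -0.17 without control 1).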

How the data were processed

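Total RNA was extracted with Trizol and RNeasy columns and labelled with biotin, per the labels' protocols. The authors deposited RMA values, per the submitters' processing notes, which give no version. RMA corrects background, equalises the distribution of the arrays and summarises each probe set. No source used here states the log base. The deposited values ran from 2.39 to 14.8 with array medians of 5.99 to 6.03 and were read as log2. RMA pulls differences of dim probe sets toward 0 and would hide a shift of most genes. Detection calls were not made, and the 3 arrays per group limit the precision.

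After 64 control probe sets were left out, 45037 remained with no filter on low values. Of these 34945 had 1 gene symbol, 932 several and 9160 none, and only the first were named, through the platform annotation updated by Entrez identifier. Differences (knockout minus control) came from limma 3.58.1 under R 4.3.3, with lmFit and eBayes, two-sided and without covariates. P-values had Benjamini-Hochberg adjustment over all probe sets and a threshold of 0.05. A gene was represented by its brightest probe set, and its other probe sets can differ. The members and lists (19 lists besides the members, 171 entries) were chosen with earlier results of these data known, and lists got counts and medians with no set test. Named genes were the members, Fzd6, the other Merkel cell genes, the 3 smallest p of each list and the 3 profiles most like Isl1. For any other gene the text says that its values were seen first. The fit was tested on simulated data. Plots used matplotlib 3.10.9 (Python 3.11.15).

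Both groups carry replicate numbers 1 to 3. Same-numbered arrays deviated together from their group means, with correlations of 0.568, 0.359 and 0.124, each above 0.1. They were therefore paired in an alternative fit, the replicate block, while the main fit was unpaired. This pairing rests on the data alone, and knockout 3 was closer to control 2 (0.422) than knockout 2 was. Alternatives were an intensity trend, probe sets above the median only, a further quantile normalisation, centred arrays, weights for arrays, a replicate block, a covariate of Y-linked genes, each array left out, replicate 1 left out of both groups, a wider threshold and the mean of a gene's probe sets.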

Additional observations from a re-analysis of the deposited data

How the results depend on the processing

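Of 132 member differences under the alternatives, 126 kept their sign and 6 changed it, and none passed the adjusted threshold (adjusted p 0.344 to 1.0 in limma). The sign changes were those of the brighter Isl1 probe set, with 0.0015 without knockout 2 (-0.50 to 0.0015 with single arrays left out), and of the brighter Syp probe set, at -0.0014 after a further quantile normalisation and -0.022 to 0.048 with single arrays left out. The count of members past the threshold was 0 throughout. Under the replicate block 3 probe sets of the whole array passed in place of 0, none of them a member or a listed gene. At an unadjusted p under 0.05 the pairing exchanged Gfi1 for Chga among the members. Member probe sets without overlap numbered 1 to 5 with single arrays left out and 4 without replicate 1 of both groups, where fewer arrays make an overlap less likely. The median difference of the 7 genes was 0.097 to 0.23 with single arrays left out. Leaving out probe sets below the median removed all members except Isl1, so that setting gave no median. Readings inside the range of the olfactory receptors limit what can be said of every member except Isl1.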
